A study of Rattus norvegicus with 16 samples.

Results

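Mitochondrial solute carriers of the SLC25 family were followed in soleus, a slow-twitch postural muscle, of rats bred for high or low running capacity. The members were all genes whose symbol in the platform annotation begins with Slc25a, on probe sets that carry a single symbol. Slc25a20, the carnitine and acylcarnitine carrier, was left out. The rule gave 39 genes on 57 probe sets, of 14217 genes with a single symbol and 31042 probe sets in all. Each gene was read on the probe set with the highest mean over the 16 arrays, and the other 18 probe sets served as a check. A pair of probe sets listed for Slc25a51 under several gene entries were not used, whereas Slc25a51l1 was a member.

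The carriers sit mostly in the inner mitochondrial membrane, which is closed to most charged metabolites. Each carrier moves a small set of substrates, usually by exchanging one for another, so that ADP and phosphate enter, ATP leaves, and reducing equivalents, amino acids, nucleotides, cofactors and metal ions cross in a controlled way. In oxidative muscle the adenine nucleotide, phosphate and malate-aspartate carriers are among the abundant proteins of the organelle. Their activity ties respiration to the ATP use of the contracting fibre.

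Both lines came from the N:NIH rat stock by artificial selection on treadmill running at 11 weeks of age, and females of generation 16 were studied. HCR denotes the high capacity line and LCR the low capacity line. In each line 4 rats did aerobic interval training uphill at 25 degrees for 8 weeks, on 5 days per week, in sessions of 1.5 hours whose hard intervals were set at 85 to 90% of maximal oxygen uptake. In each line 4 age-matched rats stayed sedentary, and all rats were killed at about 7 months, in the trained groups 48 hours after the last session. Total RNA of 1 soleus per rat was hybridised to 1 array, which gives n = 4 rats in each of the 4 groups. The values are log2 expression per probe set, so a difference of 1 is a doubling of signal, and a probe set's level was compared only with itself on other arrays.

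A few arrays stood apart and touch the carriers. The slow fibre markers (7 of 7 measured) had means among the brightest probe sets, the lowest being Tnnt1 at the 99.89th percentile. On HCR trained 3 the slow minus fast fibre mean was -4.96 on a centred log2 scale, against -1.10 to 1.34 on the other 15 arrays. Matrix markers, at 1.65, and macrophage and leukocyte markers, at 1.47, peaked on HCR sedentary 2. The beta-actin control index, the 3' minus the middle control probe set, was lowest on that array at 0.38, against 1.06 to 2.37 elsewhere. Many carriers had extreme values on these arrays. HCR sedentary 2 held the lowest value of the series for 15 of the 39 genes, and HCR trained 3 held the highest for 9 and the lowest for 6. LCR sedentary 1 held the highest for 8. No such counts are given for all probe sets, so these describe the arrays and not a trait of carriers. For a number of the differences that HCR sedentary 2 or HCR trained 3 moved by over 1.5 times, the value without the array is given below. Such values are not given for every gene and array. Because whole muscle was assayed, fewer cells of a type and less RNA per cell cannot be told apart.

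**Figure D1:**
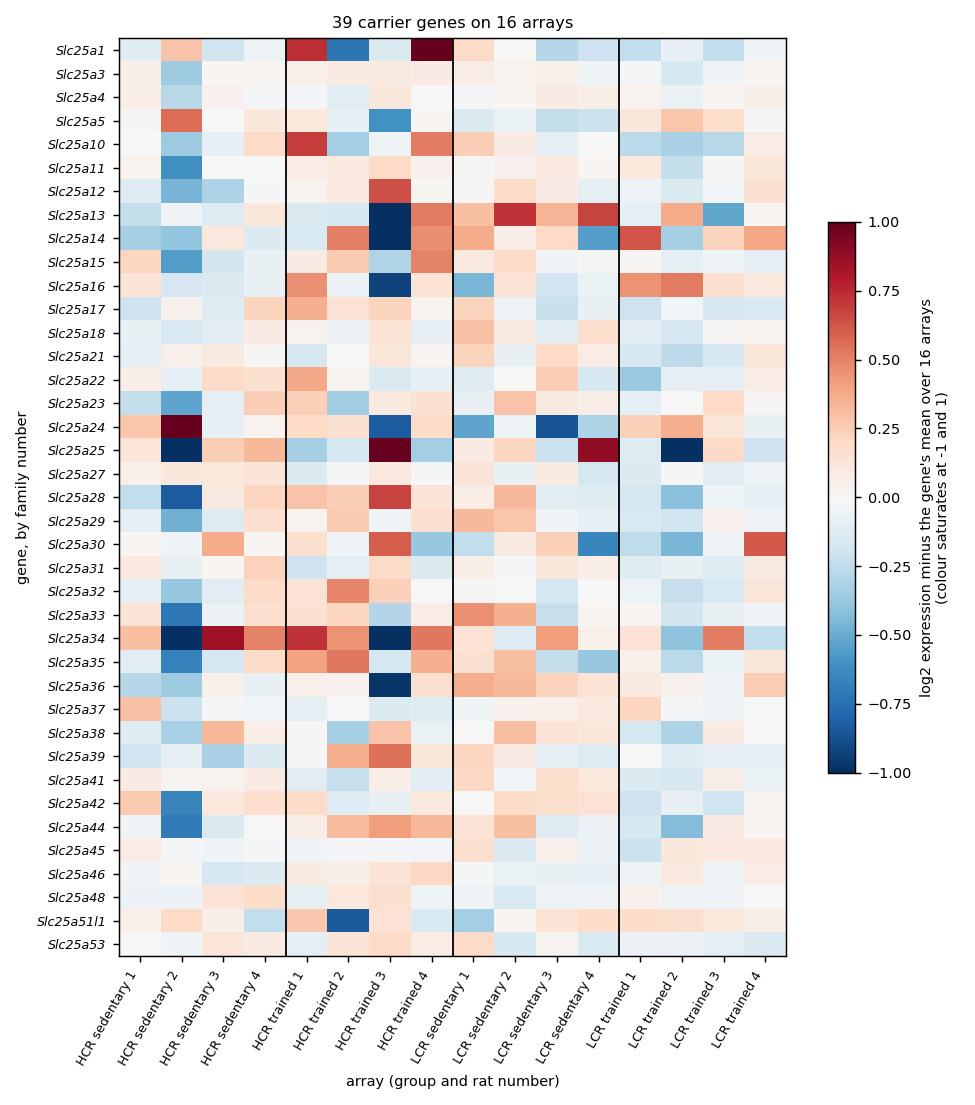
Heat map of the 39 carrier genes (rows) on the 16 arrays (columns, in the 4 groups), coloured by log2 expression minus the gene's own mean over all arrays. HCR sedentary 2 and HCR trained 3 stand out, with 15 and 6 genes at their lowest value in the series.

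No carrier passed the test in any comparison. With limma over all 16 arrays and Benjamini-Hochberg adjustment over all 31042 probe sets at 0.05, 0 of 39 genes passed for training in HCR, where 0.187% of all probe sets passed. For training in LCR the count was 0, against 0.00322% of probe sets. For HCR against LCR it was 0 in sedentary rats, against 0.00966%, and 0 in trained rats, against 0.374%. For the interaction, the training difference in HCR minus that in LCR, it was 0, as for all probe sets. Averaged over the other factor it was 0 for line, against 0.087%, and 0 for training, against 0.00644%. On the probe set used for each gene, the smallest adjusted p of any member in any comparison was 0.0821, for Slc25a39 in HCR training. With limma's array weights, which give less weight to arrays that vary more, 2 carriers passed for HCR training, Slc25a39 at 0.36 (adjusted p = 0.0398) and Slc25a46 at 0.25 (adjusted p = 0.0350). With the same weights 3 passed between trained lines, Slc25a1, Slc25a10 and Slc25a17, the last at 0.32 (adjusted p = 0.0459). For the training average 3 passed, Slc25a31, Slc25a41 at -0.18 (adjusted p = 0.0404) and Slc25a46 at 0.15 (adjusted p = 0.0408). The share of all probe sets passing with these weights is not given, so no excess in carriers can be read from these counts.

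Before adjustment, with limma p-values under 0.05, 7 of 39 carriers had higher values and 0 lower values in trained than sedentary HCR rats. That is 17.9% of carriers, against 17.7% of all probe sets, of which 10.5% were higher and 7.24% lower. In LCR training 1 was higher and 2 lower, 7.69% against 9.76% (3.54% higher, 6.22% lower). Between sedentary lines 2 were higher and 1 lower in HCR, 7.69% against 8.37% (3.63% higher, 4.74% lower). Between trained lines 5 were higher and 0 lower in HCR, 12.8% against 19.7% (11.5% higher, 8.2% lower). The interaction gave 5 positive and 2 negative, 17.9% against 18.3% (10.8% positive, 7.5% negative). The line average gave 2, 5.13% against 10.4%, and the training average 3, 7.69% against 9.55%. Counted in both directions, these shares were near or below the background.

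The intervals say how large a difference could have gone unseen. The median 95% interval for a carrier in a comparison of 4 against 4 rats reached 0.31 to either side of the estimate, against 0.21 for all probe sets. For training in HCR the intervals of 25 of 39 carriers lay wholly within a 1.5-fold difference in either direction, and in LCR those of 27 did. The intervals hold for each gene on its own and are not adjusted for the number of genes. The narrowest, for Slc25a46, reached 0.12, and the widest, for Slc25a34, reached 1.26.

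The adenine nucleotide translocases exchange cytosolic ADP for matrix ATP. Slc25a4, the isoform of heart and skeletal muscle, read 14.09, 13.75, 14.07 and 14.01 in HCR sedentary rats and 14.01, 13.92, 14.14 and 14.03 in HCR trained rats. In LCR it read 14.00, 14.04, 14.11 and 14.08 in sedentary and 14.06, 13.96, 14.05 and 14.08 in trained rats. All 4 groups overlapped. The training difference was 0.04 in HCR (95% interval -0.11 to 0.20, adjusted p = 0.808) and -0.02 in LCR (-0.18 to 0.13, adjusted p = 0.940), so both intervals lay well inside a 1.5-fold difference. Without HCR sedentary 2 the HCR value was -0.03. The probe set lay at the 99.9th percentile of means, near the top of the scale, where array signals can be compressed.

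Slc25a5, the translocase of most tissues and of dividing cells, varied more than Slc25a4. It read 10.63, 11.18, 10.61 and 10.74 in HCR sedentary rats and 10.48, 10.56, 10.38 and 10.41 in LCR sedentary rats. All 4 sedentary HCR values lay above the 4 sedentary LCR values, one of 3 carriers whose sedentary groups did not overlap (7.69% of the carriers, against 4.87% of all probe sets, 2.23% being higher and 2.64% lower in HCR). The difference was 0.33 (SE 0.15) and did not pass (adjusted p = 0.590). It was 0.20 without HCR sedentary 2.

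Trained LCR rats read 10.73, 10.90, 10.79 and 10.61 for Slc25a5, all above the sedentary LCR rats. It was the only carrier whose LCR groups did not overlap (2.56%, against 8.5% of all probe sets, or 2.9% counting those higher in trained rats). The difference was 0.30 (95% interval -0.01 to 0.61, adjusted p = 0.524). Trained HCR rats read 10.73, 10.54, 10.02 and 10.64, overlapping the sedentary HCR rats, and the difference was -0.31 (interval -0.62 to 0.0010, adjusted p = 0.284). The lowest value was that of HCR trained 3, and without it the difference was -0.16, while without HCR sedentary 2 it was -0.18. The interaction was -0.61 (SE 0.21, adjusted p = 0.158). Slc25a31, the translocase of the germ line, was dim, with a mean of 5.53 below 5.61, the 40th percentile of probe set means, and low signals give poorly determined differences.

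Slc25a3 brings phosphate into the matrix for ATP synthesis. It read 13.57, 13.15, 13.53 and 13.54 in HCR sedentary rats, 13.56, 13.60, 13.60 and 13.59 in HCR trained, 13.58, 13.54, 13.56 and 13.46 in LCR sedentary, and 13.49, 13.35, 13.46 and 13.54 in LCR trained rats. The 4 HCR trained values lay close together and above all 4 LCR trained values. The training difference in HCR was 0.14 (95% interval -0.03 to 0.31, adjusted p = 0.385) and 0.04 without HCR sedentary 2. In LCR it was -0.08 (-0.25 to 0.10, adjusted p = 0.779).

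**Figure D2:**
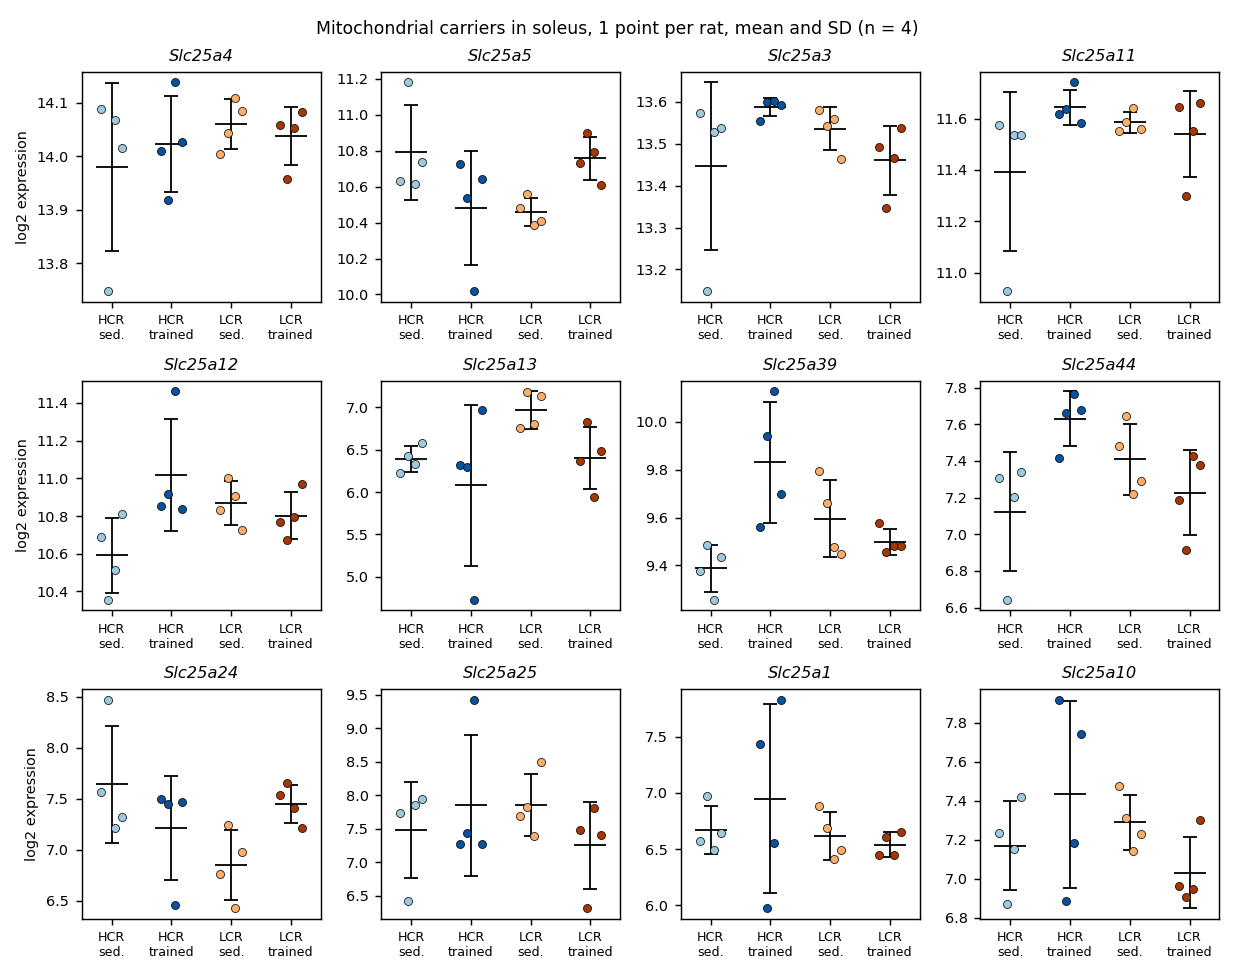
Log2 expression of 12 carriers in the 4 groups, 1 point per rat, with the mean and SD of 4 rats as bars and a separate vertical scale for each gene. Slc25a4 stays between 13.75 and 14.14 on all arrays, whereas Slc25a25 runs from 6.31 to 9.43, and single HCR rats set the spread of several genes.

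The malate-aspartate shuttle, which carries the reducing equivalents of cytosolic NADH into the matrix, uses Slc25a11 and the calcium-stimulated aspartate-glutamate carriers Slc25a12 and Slc25a13. Slc25a12, the aralar isoform of muscle and brain, read 10.69, 10.36, 10.51 and 10.81 in HCR sedentary and 10.86, 10.92, 11.46 and 10.84 in HCR trained rats. The trained values all lay above the sedentary ones, by a narrow margin except on HCR trained 3. The difference was 0.43 (SE 0.13, 95% interval 0.14 to 0.71, adjusted p = 0.136) and 0.28 without HCR trained 3. In LCR, where sedentary rats read 10.73 to 11.00 and trained rats 10.67 to 10.97, it was -0.07 (interval -0.35 to 0.22, adjusted p = 0.893).

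Slc25a11, the oxoglutarate-malate carrier, was 11.39 ± 0.31 (SD, n = 4) in HCR sedentary, 11.64 ± 0.07 in HCR trained, 11.59 ± 0.04 in LCR sedentary and 11.54 ± 0.17 in LCR trained rats. HCR sedentary 2 read 10.93 and the other 3 sedentary HCR rats 11.53 to 11.58, just below the trained range of 11.58 to 11.74. The training difference in HCR was 0.25 (SE 0.12, adjusted p = 0.301) and 0.10 without HCR sedentary 2, and in LCR it was -0.05 (SE 0.12, adjusted p = 0.922).

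Slc25a13, the citrin isoform prominent in liver, read 6.32, 6.30, 4.73 and 6.97 in HCR trained rats, the low value being HCR trained 3. In the other groups it was 6.39 ± 0.15 in HCR sedentary, 6.97 ± 0.22 in LCR sedentary and 6.41 ± 0.37 in LCR trained rats. All 4 sedentary HCR values, up to 6.58, lay below all 4 sedentary LCR values, from 6.76. The training difference was -0.31 in HCR (SE 0.34, adjusted p = 0.679), 0.14 without HCR trained 3, and -0.56 in LCR (SE 0.34, adjusted p = 0.604). A second Slc25a13 probe set, mean 5.90, gave -0.35 in HCR (adjusted p = 0.0617) and -0.20 in LCR training (adjusted p = 0.421). Between sedentary lines it differed by -0.00065, so the separation of the sedentary lines was seen on the main probe set alone.

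The ATP-magnesium/phosphate carriers change the size of the matrix adenine nucleotide pool, several of them in answer to calcium. Slc25a25 had the widest range of the family, 3.11 log2 units. It read 7.73, 6.41, 7.85 and 7.94 in HCR sedentary, 7.28, 7.43, 9.43 and 7.27 in HCR trained, 7.69, 7.83, 7.40 and 8.49 in LCR sedentary, and 7.48, 6.31, 7.81 and 7.40 in LCR trained rats. One rat lay far from the other 3 in both HCR groups, low in the sedentary and high in the trained group. The training difference was 0.37 in HCR (95% interval -0.66 to 1.40, adjusted p = 0.739), 0.0092 without HCR sedentary 2 and -0.16 without HCR trained 3, and -0.60 in LCR (interval -1.63 to 0.43, adjusted p = 0.700).

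Slc25a24, another carrier of this kind, had the smallest p between sedentary lines. It read 7.57, 8.47, 7.21 and 7.32 in HCR sedentary and 6.76, 7.24, 6.43 and 6.98 in LCR sedentary rats, so the groups overlapped by 1 value. The difference of 0.79 (SE 0.28, a 1.73-fold difference, adjusted p = 0.558) was 0.51 without HCR sedentary 2. In trained rats it read 7.49, 7.44, 6.46 and 7.47 in HCR and 7.53, 7.65, 7.41 and 7.21 in LCR. The LCR training difference was 0.60 (SE 0.28, adjusted p = 0.507).

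Slc25a41, a testis and liver form, read 5.90, 5.84, 5.85 and 5.90 in HCR sedentary, 5.71, 5.59, 5.88 and 5.71 in HCR trained, 6.02, 5.79, 5.99 and 5.92 in LCR sedentary, and 5.68, 5.65, 5.87 and 5.75 in LCR trained rats. Groups overlapped within both lines. It differed by -0.19 in LCR training (SE 0.07, adjusted p = 0.426) and by -0.17 for training averaged over lines (SE 0.05, adjusted p = 0.260), at a mean of 5.82 just above the dim range. Slc25a23, the remaining form, differed by 0.19 in HCR and -0.06 in LCR training without passing, and by 0.06 in HCR without HCR sedentary 2.

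Among the carriers of amino acids and glutathione, Slc25a39 had the smallest p of the whole family for HCR training, counting main probe sets only. Slc25a46, described below and not of this class, came next on these, ahead of Slc25a44. The second Slc25a13 probe set had a smaller p than Slc25a39 (adjusted p = 0.0617). A second Slc25a10 probe set, which was dim, came before Slc25a46 (adjusted p = 0.104). Slc25a39 brings glutathione, the main thiol antioxidant, into the matrix. It read 9.38, 9.49, 9.26 and 9.44 in HCR sedentary and 9.56, 9.94, 10.13 and 9.70 in HCR trained rats, with all trained values above all sedentary ones. The difference was 0.44 (SE 0.11, 95% interval 0.21 to 0.68, a 1.36-fold difference, adjusted p = 0.0821), and 0.34 without HCR trained 3. In LCR it read 9.80, 9.66, 9.48 and 9.45 in sedentary and 9.58, 9.45, 9.48 and 9.48 in trained rats. The interaction was 0.54 (SE 0.15, adjusted p = 0.126) and the difference between trained lines 0.33 (SE 0.11, adjusted p = 0.123). The other Slc25a39 probe set, mean 5.73, differed by -0.01 in HCR training.

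Slc25a44 carries branched-chain amino acids into mitochondria for breakdown. It read 7.31, 6.64, 7.20 and 7.34 in HCR sedentary and 7.41, 7.66, 7.77 and 7.68 in HCR trained rats, again without overlap. The difference was 0.51 (SE 0.16, adjusted p = 0.132), or 0.35 without HCR sedentary 2, and the interaction 0.69 (SE 0.22, adjusted p = 0.146). In LCR the groups overlapped, at 7.22 to 7.65 in sedentary and 6.92 to 7.43 in trained rats. A dimmer Slc25a44 probe set, mean 6.36, differed by -0.18 in HCR training.

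Across the 9 amino acid and glutathione carriers the HCR training differences were positive in 6, at a median of 0.24, or 0.13 without HCR sedentary 2, and the LCR differences were negative in all 9, at a median of -0.17. Those not named above are Slc25a15, the ornithine carrier of the urea cycle, Slc25a18 and Slc25a22, glutamate carriers, Slc25a29, a carrier of basic amino acids, and Slc25a38, a glycine carrier needed for haem synthesis. The HCR training differences of these 5 genes were 0.29, 0.07, -0.04, 0.24 and -0.01, and 0 passed. Without HCR sedentary 2 they were 0.15, 0.04, -0.10, 0.13 and -0.12, and without HCR trained 3 they were 0.43, 0.03, 0.02, 0.29 and -0.11. Of 6 Slc25a15 probe sets, 3 had a negative difference besides the brightest and 2 others positive.

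Carboxylate carriers include Slc25a1, which exports citrate for fatty acid synthesis, and Slc25a10, which exchanges malate or succinate for phosphate. In HCR trained rats Slc25a1 read 7.44, 5.97, 6.55 and 7.83 and Slc25a10 read 7.92, 6.89, 7.18 and 7.74. The high values of both genes were those of HCR trained 1 and HCR trained 4. In the other groups Slc25a1 was 6.67 ± 0.21 in HCR sedentary, 6.62 ± 0.21 in LCR sedentary and 6.54 ± 0.11 in LCR trained rats. Slc25a10 was 7.17 ± 0.23, 7.29 ± 0.14 and 7.03 ± 0.18 in the same groups. The adipocyte marker mean (4 of 5 markers measured) was 1.98 on HCR trained 1 and 1.60 on HCR trained 4, and -1.32 to 0.89 on the other 14 arrays.

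Slc25a21, the oxodicarboxylate carrier of lysine and tryptophan breakdown, read 5.95, 5.65, 5.92 and 5.80 in LCR sedentary and 5.56, 5.46, 5.57 and 5.84 in LCR trained rats, which overlapped, and 5.56 to 5.84 in HCR rats. It differed by -0.22 in LCR training (SE 0.09, adjusted p = 0.463) at a mean of 5.72. Slc25a34 and Slc25a35, whose substrates are less settled, differed by -0.05 and 0.47 in HCR training and by -0.12 and -0.0025 in LCR training. Without HCR sedentary 2 the HCR differences were -0.64 and 0.31, and without HCR trained 3 they were 0.60 and 0.62. The LCR training differences of all 6 carboxylate carriers, Slc25a11 included, were negative, at a median of -0.10, and the HCR differences were positive in 4, at a median of 0.26, or 0.13 without HCR sedentary 2 and 0.38 without HCR trained 3.

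Iron for haem and iron-sulphur clusters enters through the mitoferrins. Slc25a28, mitoferrin 2, read 8.87, 8.28, 9.20 and 9.33 in HCR sedentary, 9.40, 9.36, 9.79 and 9.24 in HCR trained, 9.19, 9.44, 9.01 and 9.0 in LCR sedentary and 8.94, 8.70, 9.07 and 9.03 in LCR trained rats. Every trained HCR value lay above every trained LCR value. The difference between trained lines was 0.51 (SE 0.19, adjusted p = 0.162), or 0.40 without HCR trained 3. Slc25a37, mitoferrin 1 of erythroid cells, held between 6.09 and 6.60 on all arrays, with means of 6.32 and 6.22 in sedentary and trained HCR rats and 6.34 in both LCR groups.

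Slc25a17, a peroxisomal carrier of cofactors, read 8.60, 8.38, 8.46 and 8.27 in HCR trained and 8.03, 8.21, 8.07 and 8.08 in LCR trained rats, without overlap. The difference of 0.33 (SE 0.11, adjusted p = 0.119) was the smallest p between trained lines on the main probe sets. Second probe sets of Slc25a46 and Slc25a36 had smaller p and were lower in HCR. They differed by -0.76 (adjusted p = 0.0962) and -0.88 (adjusted p = 0.104). Slc25a17 was one of 3 carriers whose trained lines did not overlap, with Slc25a3 and Slc25a28 (7.69%, against 13.6% of all probe sets, or 7.61% counting those higher in HCR). The line difference averaged over training was 0.17 (SE 0.08, adjusted p = 0.463).

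Slc25a36, a pyrimidine nucleotide carrier, read 9.86, 9.79, 10.20 and 10.08 in HCR sedentary and 10.51, 10.47, 10.37 and 10.28 in LCR sedentary rats, all HCR values lying below the LCR values. Trained rats, at 10.20, 10.19, 9.17 and 10.31 in HCR and 10.23, 10.19, 10.11 and 10.40 in LCR, overlapped. The difference between sedentary lines was -0.43 (SE 0.19, adjusted p = 0.593), and averaged over training it was -0.35 (SE 0.14, adjusted p = 0.419). Without HCR trained 3, which read 9.17 against 10.19 to 10.31 on the other trained HCR arrays, the averaged difference was -0.21. A dimmer Slc25a36 probe set gave -0.63 for the same average (adjusted p = 0.298). On that probe set the difference was larger between trained lines, at -0.88 (adjusted p = 0.104), than between sedentary lines, at -0.37 (adjusted p = 0.695).

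Slc25a33, a pyrimidine nucleotide carrier linked to growth signalling, was 6.97 ± 0.41 in sedentary and 7.13 ± 0.23 in trained HCR rats, and 7.24 ± 0.32 in sedentary and 7.02 ± 0.09 in trained LCR rats (SD, n = 4). Slc25a42, a coenzyme A carrier, was 9.0 ± 0.43, 9.06 ± 0.15, 9.15 ± 0.09 and 8.91 ± 0.11 in the same order. The groups of both genes overlapped within each line. Slc25a32, a folate and flavin carrier, and Slc25a16, linked to coenzyme A, differed by 0.32 and -0.04 in HCR training and by -0.04 and 0.46 in LCR training, without passing. Without HCR trained 3 the HCR difference of Slc25a16 was 0.24.

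Slc25a46 acts on the outer membrane in mitochondrial shape and lipid traffic. It read 9.95, 10.02, 9.82 and 9.85 in HCR sedentary and 10.08, 10.05, 10.13 and 10.20 in HCR trained rats, without overlap. The difference of 0.20 (SE 0.06, a 1.15-fold difference) did not pass (adjusted p = 0.118), nor did the training average of 0.14 (SE 0.04, adjusted p = 0.249). A second Slc25a46 probe set, mean 7.55, differed by -0.27 in HCR training. The relatives of the uncoupling proteins, Slc25a14, Slc25a27 and Slc25a30, differed by 0.13, -0.12 and -0.0091 in HCR training, and by 0.46, -0.15 and -0.18 without HCR trained 3. Slc25a45, Slc25a48, Slc25a51l1 and Slc25a53 differed by -0.16 to 0.03, and by -0.25 to -0.0069 without HCR trained 3. Slc25a27 and Slc25a53 were dim. Slc25a53 read 5.50 to 5.79 in HCR and 5.44 to 5.79 in LCR rats and differed by 0.12 between lines averaged over training (SE 0.06, adjusted p = 0.505). The Slc25a14 probe set is of the type that can match more than 1 transcript family.

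**Figure D3:**
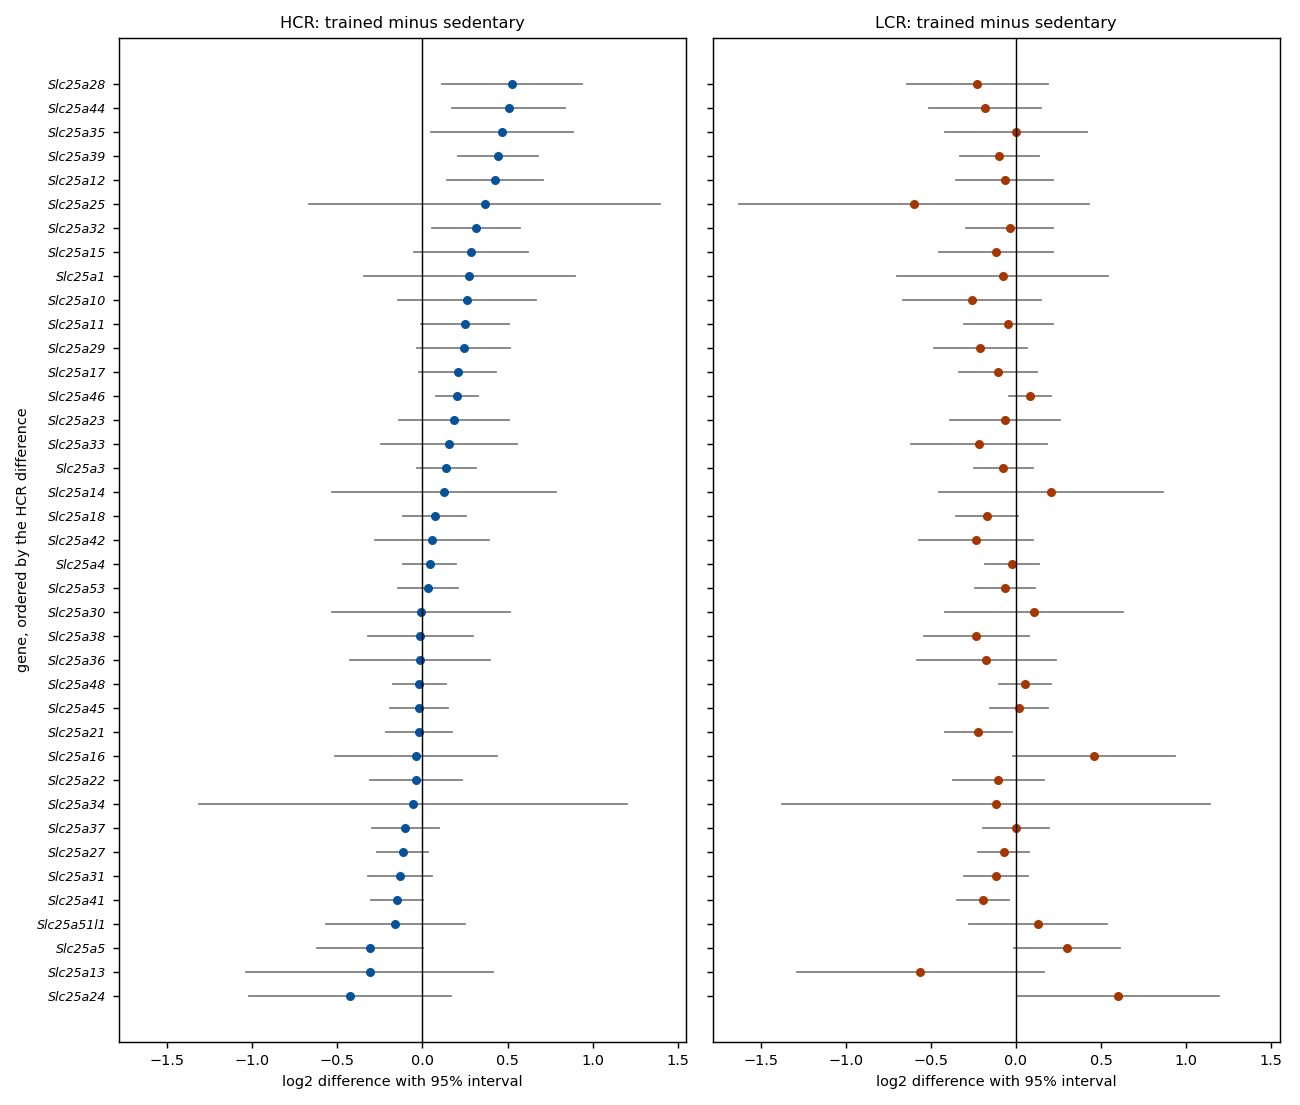
Training differences of the 39 carriers (trained minus sedentary, log2) with their 95% intervals in HCR (left) and LCR (right), genes in the order of the HCR difference. No gene passed the adjusted test, 22 HCR and 10 LCR estimates are above 0, and the intervals of 25 and 27 genes lie within a 1.5-fold difference.

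Taken over the family, 22 of 39 training differences were positive in HCR, at a median of 0.06, beside 51.1% positive and a median of 0.0044 over all probe sets. The carrier median was -0.0093 without HCR sedentary 2 and 0.14 without HCR trained 3. In LCR 10 of 39 were positive, at a median of -0.08, or -0.12 without LCR sedentary 4, beside 41.6% and -0.02. In sedentary rats 12 of 39 line differences were positive, at a median of -0.09, beside 51.8% and 0.0057, and the median was -0.02 without HCR sedentary 2. In trained rats 26 of 39 were positive, at a median of 0.10, or 0.06 without LCR trained 2, beside 62.5% and 0.04. These comparisons share groups with each other. Averaged over training the line difference was positive in 20 of 39, beside 60.4% of all probe sets, and averaged over line the training difference in 21 of 39, beside 44.0%. The interaction was positive in 28 of 39, at a median of 0.22, beside 57.1% and 0.04, and in all 9 amino acid and glutathione carriers and all 6 carboxylate carriers. Its median was 0.11 without HCR sedentary 2 and HCR trained 3, and -0.04 once the fit held a term for the beta-actin index. That index was 1.18 ± 0.54 (SD, n = 4) in sedentary and 1.90 ± 0.35 in trained HCR rats, and 1.65 ± 0.32 in sedentary and 1.27 ± 0.14 in trained LCR rats. Because the index itself differed between the groups, its part and that of line and training cannot be told apart in this fit. The cause of the change in the median was not tested, and no median over all probe sets is given for that fit.

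Among the 5 HCR training comparisons without overlap, those of Slc25a11, Slc25a12, Slc25a39, Slc25a44 and Slc25a46, all were higher in trained rats (12.8% of carriers, against 7.61% of all probe sets in either direction and 4.94% higher). The carriers varied more between rats of a group than most probe sets, with a median residual SD of 0.22 against 0.14, or 0.17 among probe sets that were not dim.

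Several carriers varied across the arrays with markers of other cells. The relation of each carrier to 4 measures of the array was computed over the 16 rats, 156 relations in all, chosen after the values were seen, with Benjamini-Hochberg adjustment over the 156. Slc25a10 followed the adipocyte marker mean with a Pearson's r of 0.908, whose permutation p of 1e-05 (adjusted 0.00078) is the smallest that 100000 resamples give. Spearman's rho was 0.850 (permutation p = 8e-05, adjusted 0.00416). Leaving out HCR trained 1 and HCR trained 4, which lay farthest from the median, gave r = 0.755, and within groups it was 0.894. An r this far from 0 was found for 0.0515% of all probe sets. For Slc25a1 r was 0.747 (permutation p = 0.00223, adjusted 0.0193) and rho 0.541 (permutation p = 0.0326, adjusted 0.173), but r was 0.283 without those 2 arrays, so the relation rests on them. For an r as large as that of Slc25a1 the share of all probe sets was 0.351%.

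Matrix markers (7 of 7 measured) had a centred mean of -0.38 to 1.65 in HCR sedentary, -0.50 to -0.44 in HCR trained, -0.66 to 0.08 in LCR sedentary and -0.26 to 1.21 in LCR trained rats. After adjustment 2 of the 39 carriers were related to this mean positively and 7 negatively. Slc25a5 gave r = 0.750 (permutation p = 0.00051, adjusted 0.00796), rho = 0.662 (adjusted permutation p = 0.0731) and r = 0.467 without HCR sedentary 2 and LCR trained 2. Slc25a24 gave r = 0.720 (permutation p = 0.0014, adjusted 0.0168), rho = 0.571 (adjusted permutation p = 0.147) and 0.434 without those arrays. Slc25a3 gave r = -0.883 (permutation p = 0.00011, adjusted 0.00338), rho = -0.624 (adjusted permutation p = 0.0936) and -0.537 without them. Slc25a11 gave -0.809 (permutation p = 0.00164, adjusted 0.0176) with rho = -0.294 (adjusted permutation p = 0.597), and -0.09 without them, so its relation rests on those 2 rats. The 5 other carriers with a negative relation were Slc25a28, Slc25a29, Slc25a32, Slc25a42 and Slc25a44, at -0.769, -0.738, -0.718, -0.694 and -0.795. Without the same 2 arrays these were -0.405, -0.435, -0.515, -0.317 and -0.389, and the rank correlation passed after adjustment for Slc25a32 alone of the 5. Over all probe sets, 5.09% had an r with the matrix mean as far from 0 as Slc25a5, and 6.66% as Slc25a24. The share was 0.583% for Slc25a3 and 2.45% for Slc25a11. For the 5 other carriers, in the order given, the shares were 4.16%, 5.61%, 6.8%, 8.34% and 2.97%. No count of all probe sets passing is given beside the 2 and 7. The part of matrix cells in the differences of Slc25a5 and Slc25a24 was not tested.

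**Figure D4:**
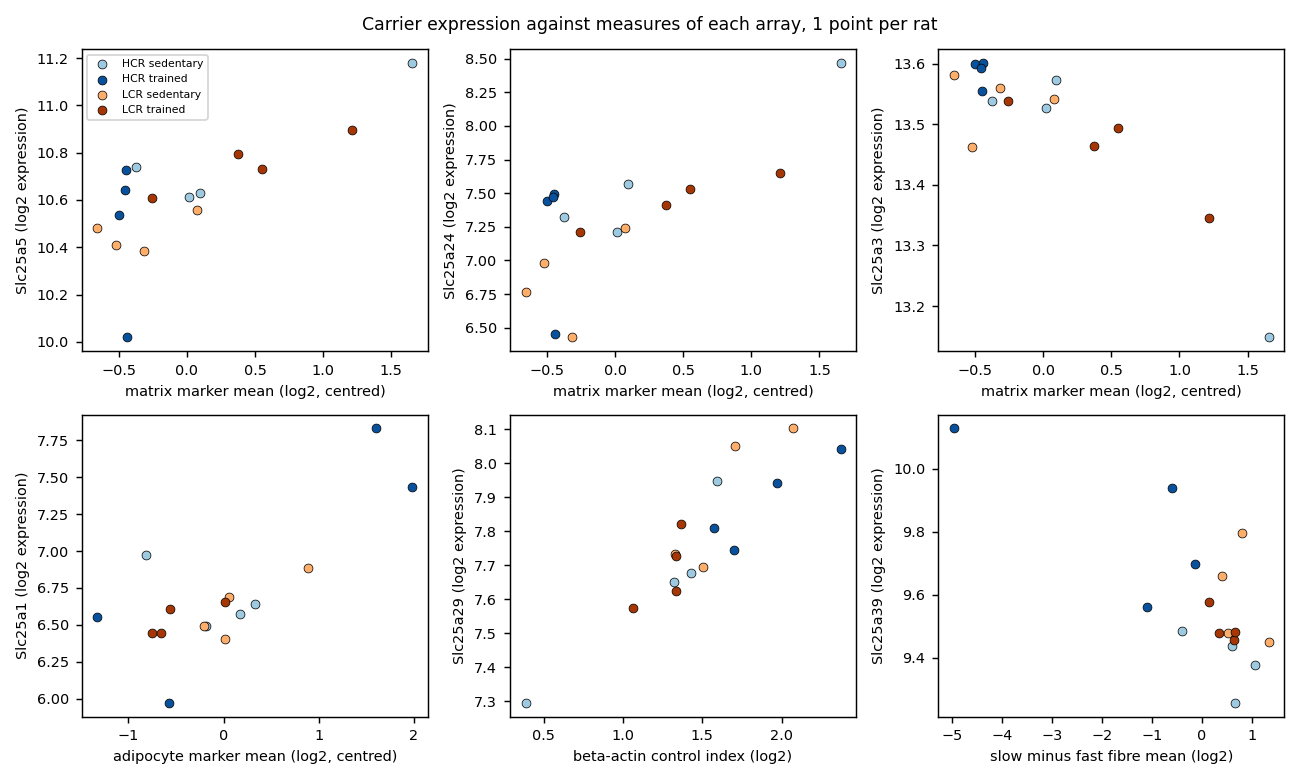
Log2 expression of 6 carrier and array-measure pairings, 1 point per rat coloured by group, against the matrix, adipocyte and slow minus fast fibre marker means (centred log2) and the beta-actin control index (log2). Slc25a5 and Slc25a24 lie higher and Slc25a3 lower on arrays with a high matrix mean, and the rightmost matrix point is HCR sedentary 2.

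The beta-actin control index was followed by 9 carriers in the same direction and 1, Slc25a51l1, in the other. No count of all probe sets passing is given beside these, so they are not read as a trait of carriers. Slc25a29 gave r = 0.904 (permutation p = 2e-05, adjusted 0.00078), rho = 0.868 (adjusted permutation p = 0.00312), r = 0.837 without HCR sedentary 2 and HCR trained 2, and 0.894 within groups. Slc25a44 gave r = 0.875 (permutation p = 2e-05, adjusted 0.00078), rho = 0.865 (adjusted permutation p = 0.00312) and 0.787 without the same arrays. An r with this index as far from 0 was found for 0.319% of all probe sets for Slc25a29 and 0.78% for Slc25a44. Across the arrays r lay beyond 0.5 in either direction for 33.3% of carriers and 30.3% of all probe sets. For the matrix mean these shares were 43.6% and 27.4%, and for the slow minus fast fibre mean 20.5% and 17.0%, and for the adipocyte mean 17.9% and 9.97%. With the fibre mean only Slc25a39 passed, at r = -0.744 (permutation p = 0.00307, adjusted 0.0239), rho = -0.641 (adjusted permutation p = 0.0841) and -0.549 without HCR trained 3 and HCR trained 1. Of all probe sets, 3.16% had an r with the fibre mean as far from 0.

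Among themselves the carriers formed some close pairs within groups, described over 16 arrays whose control measures differed. The beta-actin index of these arrays ran from 0.38 to 2.37. The pairs named are among those with the largest r of either sign, and no background of other genes is given. Slc25a3 and Slc25a11 varied together at r = 0.951 after group means were removed, Slc25a5 and Slc25a24 at 0.906, and Slc25a33 and Slc25a35 at 0.899. The translocase isoforms Slc25a4 and Slc25a5 varied in opposite directions, at -0.828, as did Slc25a5 and Slc25a25, at -0.847. Without HCR sedentary 2 and HCR trained 3 the values for these 5 pairs, in the order given, were 0.820, 0.573, 0.803, -0.450 and -0.357.

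Companion genes of mitochondrial transport give the setting, and 48 of 53 listed were measured. They are carriers of the family under other names (uncoupling proteins and Mtch genes), the pyruvate carrier, outer membrane channels, creatine kinases, calcium transporters, sideroflexins, ABC transporters, import factors, and reference genes of respiration. In HCR training 1 was higher past the threshold and 0 lower, where 0.187% of all probe sets passed. In LCR training the counts were 1 and 0, where 0.00322% passed. The gene was Cox7a1 in both lines, the muscle isoform of a cytochrome oxidase subunit, at 2.00 and 1.67. Next in HCR came Vdac2, an outer membrane channel, at 0.17 (SE 0.06, adjusted p = 0.154), and Cs, citrate synthase, at 0.33 (SE 0.11, adjusted p = 0.161). The HCR training median of the 48 genes was 0.10, with 40 positive, beside 51.1% of all probe sets positive. The LCR median was -0.0069, with 22 positive, beside 41.6%. Values without HCR sedentary 2 are not given for these genes. Between lines 0 passed in sedentary or in trained rats, where Letm1, an inner membrane ion exchanger factor, differed by 0.36 (SE 0.13, adjusted p = 0.147). Of the 18 other probe sets of the carriers, which belong to 12 genes, 0 passed in any comparison in limma. The HCR training difference had the same sign as that of the gene's main probe set in 9 of the 18, and 6 of the 18 were dim. The smallest adjusted p was 0.0617, for the second Slc25a13 probe set in HCR training.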

How the data were processed

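The deposited values are log2 signals per probe set on 16 arrays of 1 rat each, made by the authors. The submitters' processing notes list RMA, which corrects background, normalizes between arrays and summarises probes, as well as limma, both without a version. Array medians ran from 5.90 to 5.98. RMA removes a shift common to all genes, so that a difference is measured against most other probe sets.

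From these values 57 control probe sets were left out and limma 3.58.1 in R 4.3.3 was fitted to 4 group means, leaving 12 residual degrees of freedom, with Benjamini-Hochberg adjustment over 31042 probe sets in each comparison. The script was tested on simulated data. The number of arrays limits precision, and p-values rest on the spread between rats. Of the probe sets, 20826 had 1 symbol, 436 several and 9780 none. All 39 members had a current RefSeq entry, with 0 symbols changed. The members and lists were chosen with earlier results of these data known.

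The rule named carriers that passed, the 3 of smallest p in each comparison, given array by array (Slc25a53, which is dim, and parts of Slc25a21 as ranges), and 12 key carriers. Of these, the training differences of 7 are given and the others by array or group, a choice made after their values were seen. Alternatives were quantile normalization, median centring, array weights, a filter on dim probe sets, a variance trend, the replicate number as a block, the beta-actin index, the compared groups alone, arrays left out, and means over a gene's probe sets. Leaving out HCR sedentary 2 and HCR trained 3 for medians by role and for gene pairs was added after seeing the data. The labels give 4 groups of separate rats, and the replicate numbers were not used as pairs in the main fit. Of 24 same-numbered pairs of arrays, 8 correlated above 0.1 in their deviations from the group means, with r from -0.48 to 0.57. No differently numbered pairs are given beside them, so this count cannot settle whether the numbers pair the rats.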

Additional observations from a re-analysis of the deposited data

Results flagged for a closer look

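In groups of 4 rats, 9 of 88 groups of named carriers held a rat set far apart from the other 3. Chance flags about 1 in 20 independent groups, but the named carriers share the same arrays and several vary together. The share of flagged groups among all probe sets is not given, so no excess in carriers can be read from this count. On HCR sedentary 2, Slc25a3 read 13.15 against 13.53 to 13.57, Slc25a11 read 10.93 against 11.53 to 11.58, Slc25a25 read 6.41 against 7.73 to 7.94, and Slc25a42 read 8.36 against 9.14 to 9.29. On HCR trained 3, Slc25a12 read 11.46 against 10.84 to 10.92 and Slc25a25 read 9.43 against 7.27 to 7.43. On the same array Slc25a24 read 6.46 against 7.44 to 7.49 and Slc25a36 read 9.17 against 10.19 to 10.31. On LCR trained 4, Slc25a10 read 7.30 against 6.91 to 6.96. Thus 8 of the 9 lay on HCR sedentary 2 and HCR trained 3.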

How the results depend on the processing

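The count of carriers that passed was 0 in every comparison under each alternative but array weights, which gave 3 between trained lines (Slc25a1, Slc25a10 and Slc25a17), 2 for HCR training (Slc25a39 and Slc25a46) and 3 for the training average (Slc25a31, Slc25a41 and Slc25a46). The cause was not tested, and the share of all probe sets passing with array weights is not given. With the replicate number as a block the count was 0 in all 7 comparisons and the replicate block changed no call. A term for the beta-actin index moved the medians to -0.012 between sedentary lines, -0.017 between trained lines, -0.030 for HCR training and -0.044 for the interaction. The index differed between the groups, so its part and that of the groups cannot be told apart in this fit. The interaction median was 0.11 without HCR sedentary 2 and HCR trained 3 and 0.12 with means over a gene's probe sets.

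Values that turned their sign passed in neither setting. For HCR training, array weights turned Slc25a4 to -0.030, Slc25a13 to 0.20 and Slc25a25 to -0.30. The beta-actin term turned Slc25a3 to -0.030, Slc25a4 to -0.023 and Slc25a25 to -0.097, and, for LCR training, Slc25a3 to 0.014, Slc25a4 to 0.013 and Slc25a11 to 0.074. Without HCR sedentary 2 and HCR trained 3, Slc25a4 was -0.073, Slc25a13 0.15 and Slc25a25 -0.52 in HCR training. The mean over its probe sets turned Slc25a46 to -0.032. Over single arrays left out, HCR training ranged from -0.034 to 0.079 for Slc25a4, -0.61 to 0.14 for Slc25a13 and -0.16 to 0.56 for Slc25a25, with a family median of -0.0093 to 0.14. LCR training ranged from -0.041 to 0.0043 for Slc25a4 and -0.086 to 0.034 for Slc25a11, and the interaction median from 0.11 to 0.25. Signal near the dim range limits Slc25a27, Slc25a31 and Slc25a53.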

Other observations

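Slc25a34, chosen here after its values were seen, was low on the same 2 arrays. It read 6.32 on HCR sedentary 2 and 6.05 on HCR trained 3, and 7.71 to 8.96 on the other 14 arrays, the second widest range of the family at 2.91 log2 units. Its training difference was -0.05 in HCR (SE 0.59), but -0.64 without HCR sedentary 2, 0.60 without HCR trained 3 and 0.017 without both, and -0.12 in LCR (SE 0.59).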
